A study of Rattus norvegicus with 12 samples.

Results

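Circular RNAs (circRNAs) are closed loops that form when the splicing machinery joins the end of an exon back to the start of the same or an upstream exon. They are abundant in nervous tissue, lack free ends and are therefore resistant to the exonucleases that degrade linear RNA, and some hold binding sites for microRNAs (miRNAs). The paraventricular nucleus of the hypothalamus (PVN) contains the neurons that release corticotropin-releasing hormone and so start the hormonal response to stress. Described here are 3 circRNAs of the rat PVN, novel_circ_0022310, novel_circ_0038449 and novel_circ_0000142, out of 21914 in the circRNA table. They were chosen by identifier because their counts differed by degree, rather than by presence and absence, between rats after liver surgery and normal rats. That difference is therefore a description of how they were chosen and was not tested.

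The samples were PVN tissue of male Sprague-Dawley rats in 4 groups with 3 libraries each, 12 in all. Normal controls (NC) had no operation. The hepatectomy group (HT) had part of the left liver lobe removed under isoflurane. HT+EA rats had the same operation with electroacupuncture, a weak current through needles at the acupoints ST36 and SP6, on the day before and right after surgery. HT+SEA rats had hepatectomy with sham electroacupuncture, with needles placed at the same points but no current. Rats of all 4 groups, NC and HT included, were held in a restraint device for the same time, and tissue was taken a day after the last treatment. No group had anaesthesia or abdominal opening alone, so removal of liver tissue cannot be told apart from the rest of the operation. The tissue label reads only brain, and because the identifiers carry no host gene, the dissection could not be checked against marker genes of the PVN.

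Total circRNA counts per library ran from 134903 to 360524, and the smallest was HT replicate 3. That library also lay apart on the first principal component of the whole profile, at -57.7 against -4.71 to 16.7 for the other 11. The HT against NC fold changes and the positions of the 3 circRNAs are therefore also given without HT replicate 3. Other results that rest on HT include that library. Of the 21914 circRNAs, 4838 had enough counts to be tested, and all 3 of the circRNAs described here were among them. The table holds no value of 1, so its lowest value above 0 is 2.

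novel_circ_0038449 is 1 of the 44 node circRNAs from which the study built its circRNA-miRNA-mRNA networks, whereas novel_circ_0022310 and novel_circ_0000142 are not in that list. The list was chosen on these same libraries, so membership is not independent evidence of a change. The study's table pairs novel_circ_0038449 with 3 miRNAs by predicted binding, and RefSeq holds a mature sequence for 2 of them. They are shown because they are the only sequences tied to any of the 3 circRNAs, with the seed, bases 2 to 8 from the 5′ end, in capitals. The seed is the stretch through which a miRNA mostly recognises its targets.
rno-miR-3084a-3p: uUCUGCCAguccccuucagaca
rno-miR-145-5p: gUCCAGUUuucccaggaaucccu
These seeds differ from each other. In the rat assembly GRCr8 the former sequence is encoded at both chr6:93551127-93551148 and chr19:55718541-55718562, on the minus strand. The chromosome 6 copy lies within the spans of Klhdc2 and Nemf, and the chromosome 19 copy within that of Sf3b3. The latter, a miRNA known from smooth muscle, lies at chr18:57370033-57370055 on the minus strand, within the long noncoding RNA gene Carmn. Whether these positions are exonic or intronic was not analysed here. The third paired miRNA, novel_854, had no entry. No sequence or position of the circRNAs themselves was used here, so the predicted sites were not examined.

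novel_circ_0022310 was the circRNA of the 3 that was higher after hepatectomy. Values are CPM, that is counts set relative to the summed counts of the tested circRNAs in each library and then scaled between libraries. It had 35.4, 75.5 and 45.4 CPM in NC and 155, 103 and 179 CPM in HT. Every HT library lay above every NC library, and the lowest HT library was 1.36-fold above the highest NC library. HT replicates 2 and 3 had the same count of 22, and their CPM differed because of the depth of the libraries. With HT+EA the values were 80.2, 65.2 and 79.4 CPM, all below the lowest HT library. High HT values were part of the choice of this circRNA, and how many of all tested circRNAs show such a gap is not given here. With HT+SEA they were 141, 127 and 82.5 CPM, so replicates 1 and 2 lay inside the HT range and replicate 3 below it. The group means were 52.1 ± 20.8 in NC, 146 ± 39.1 in HT, 74.9 ± 8.45 in HT+EA and 117 ± 30.4 in HT+SEA (CPM, SD, n = 3 each).

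novel_circ_0038449 was lower after hepatectomy, and its HT libraries were the tightest set of values among the 3 circRNAs. It had 213, 131 and 154 CPM in NC against 49.7, 56.2 and 48.9 CPM in HT. The lowest NC library was 2.33-fold above the highest HT library, the widest gap of the 3. With HT+EA it had 69.5, 121 and 89.9 CPM, and with HT+SEA 99.8, 102 and 82.5 CPM. All 6 of these libraries lay above all HT libraries and below all NC libraries. Counted in either direction after the values were seen, this held for 2 (0.0413%) of the 4838 tested circRNAs. It needs a gap between HT and NC, and this circRNA was chosen for a difference between them. Of the 466 circRNAs with no overlap of HT and NC it held for 2 (0.429%). The group means were 166 ± 42.1 in NC, 51.6 ± 3.98 in HT, 93.3 ± 25.7 in HT+EA and 94.7 ± 10.6 in HT+SEA (CPM, SD, n = 3 each).

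novel_circ_0000142 was also lower after hepatectomy but was much less abundant. Its counts were 8, 11 and 12 in NC and 4, 3 and 2 in HT, or 40.5, 55.4 and 54.5 CPM against 24.8, 14.0 and 16.3 CPM. Every HT library lay below every NC library, although the gap was only from 4 to 8 counts. With HT+EA the counts were 8, 16 and 11, or 42.8, 52.1 and 58.2 CPM. With HT+SEA they were 5, 7 and 9, or 22.7, 44.6 and 53.0 CPM. The HT+EA libraries thus lay at the NC level, and the HT+SEA libraries were spread from the HT range to the NC range. The group means were 50.1 ± 8.34 in NC, 18.4 ± 5.70 in HT, 51.0 ± 7.76 in HT+EA and 40.1 ± 15.7 in HT+SEA (CPM, SD, n = 3 each).

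**Figure D1:**
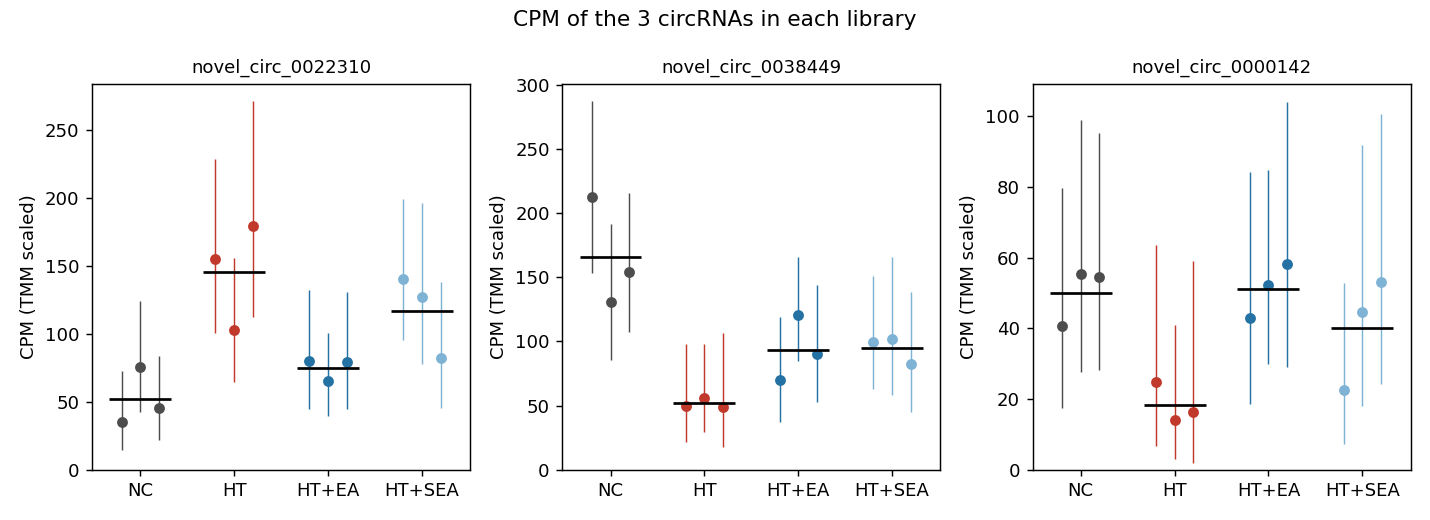
CPM (vertical axis, from 0) of each circRNA in the 12 libraries, with replicates 1 to 3 from left to right in each group. Points are libraries, thin lines are exact 95% Poisson intervals of the count and cover counting error only, and black bars are group means. The HT points lie above the NC points for novel_circ_0022310 and below them for the other two.

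The counts behind these values were small. A library held 7 to 31 counts of novel_circ_0022310, 6 to 42 of novel_circ_0038449 and 2 to 16 of novel_circ_0000142, and none was listed at 0. The 2 counts of novel_circ_0000142 in HT replicate 3 have an exact 95% Poisson interval of 0.242 to 7.22 counts, which is 1.97 to 58.9 CPM and reaches past the NC mean. The 42 counts of novel_circ_0038449 in NC replicate 1 have an interval of 30.3 to 56.8 counts. Reads without molecular identifiers are not independent molecules, so such intervals cover counting error only.

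The spread between libraries was set against counting error by a chi-square per degree of freedom, which averages about 1 where libraries differ by counting error alone. With 3 libraries a group, this ratio can lie far from 1 by counting error alone. For novel_circ_0022310 it was 1.65 in NC, 2.21 in HT, 0.311 in HT+EA and 1.31 in HT+SEA. For novel_circ_0038449 it was 2.35 in NC, 0.0311 in HT, 1.47 in HT+EA and 0.187 in HT+SEA. For novel_circ_0000142 it was 0.237, 0.317, 0.223 and 1.36 in that order. The HT libraries of novel_circ_0038449 had a coefficient of variation of 7.72%, whereas counting error alone gives 34.0% at their mean count. The small SD of that group is thus below what its counts can resolve. The same holds for HT+EA of novel_circ_0022310, at 11.3% against 24.5%, and for HT+SEA of novel_circ_0038449, at 11.2% against 24.0%. It also holds for NC, HT and HT+EA of novel_circ_0000142.

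How large the difference between HT and NC was, and where it stands among all circRNAs, is given here as a description, since HT and NC values chose the 3 circRNAs. The edgeR log2 fold change of HT against NC was 1.46 with a standard error of 0.37 for novel_circ_0022310, -1.66 with 0.33 for novel_circ_0038449 and -1.43 with 0.56 for novel_circ_0000142. Without HT replicate 3 these values were 1.29, -1.64 and -1.38. The median size of the log2 fold change over all 4838 tested circRNAs was 0.28. By size the 3 circRNAs ranked 109, 79 and 116 of 4838. By summed counts novel_circ_0000142 had 9 in HT and 31 in NC, a depth-adjusted ratio of 0.360 with an exact 95% counting interval of 0.151 to 0.774.

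HT and NC libraries did not overlap in any of the 3 circRNAs, which were chosen for a graded difference between these groups. Among all tested circRNAs 213 (4.40%) had every HT library above every NC library, and 253 (5.23%) had every HT library below every NC library, together 466 (9.63%). By abundance, as mean CPM over 12 libraries, novel_circ_0038449 ranked 2108 of 4838 at 101 CPM and novel_circ_0022310 ranked 2185 at 97.4 CPM, both near the median of 86.8 CPM. novel_circ_0000142 ranked 4474 at 39.9 CPM and was thus among the least abundant that were tested.

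**Figure D2:**
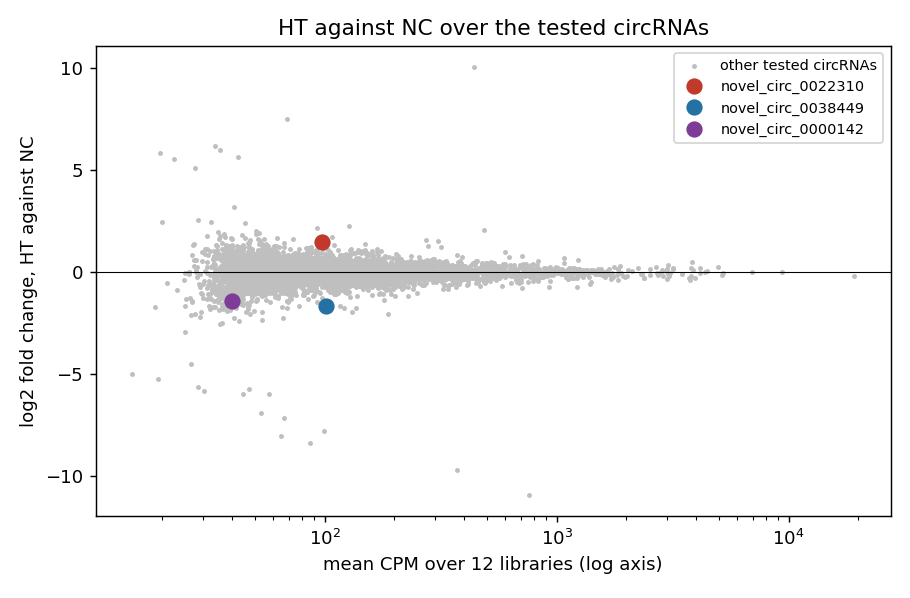
Log2 fold change of HT against NC (vertical axis) by mean CPM over 12 libraries (horizontal log axis) for the 4838 tested circRNAs, with the 3 described here as large points. At 97.4 and 101 CPM novel_circ_0022310 and novel_circ_0038449 lie above and below most circRNAs of similar CPM. Some circRNAs lie further out, such as novel_circ_0001491 at -7.76 and 99.2 CPM. At 39.9 CPM novel_circ_0000142 lies where the cloud is wide.

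To describe how far the treated groups lay between HT and NC, each value was placed on a line from 0 at the HT mean to 1 at the NC mean, for each circRNA. The SD of a position is that over the 3 libraries of the group, with the HT and NC means held fixed. Since both ends of the line come from the libraries that chose the circRNAs, positions were not tested. Without HT replicate 3 the HT+EA positions of novel_circ_0022310, novel_circ_0038449 and novel_circ_0000142 were 0.704, 0.357 and 1.03, and the HT+SEA positions were 0.160, 0.370 and 0.673.

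For novel_circ_0022310 HT+EA stood at 0.757 ± 0.0902 (SD, n = 3), with its libraries at 0.700, 0.861 and 0.710. HT+SEA stood at 0.310 ± 0.325 (SD, n = 3), with libraries at 0.0564, 0.198 and 0.676. In the HT+EA group 2 libraries lay between the HT and NC ranges and 1 inside the NC range. In the HT+SEA group 2 lay inside the HT range and 1 between the ranges. The HT+SEA position rested on single libraries. It was 0.127 without HT+SEA replicate 3, as against 0.438 without HT replicate 2.

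For novel_circ_0038449 both treated groups stood at about the same place, HT+EA at 0.365 ± 0.225 and HT+SEA at 0.377 ± 0.0928 (SD, n = 3 each). The HT+EA libraries lay at 0.157, 0.603 and 0.335, and the HT+SEA libraries at 0.421, 0.439 and 0.270. All 6 were between the HT and NC ranges. With mean log2 CPM in place of mean CPM the positions were 0.482 and 0.511.

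For novel_circ_0000142 HT+EA stood at 1.03 ± 0.245 and HT+SEA at 0.684 ± 0.494 (SD, n = 3 each). The HT+EA libraries were at 0.769, 1.06 and 1.25, so 2 lay inside the NC range and 1 above it. The HT+SEA libraries were at 0.135, 0.825 and 1.09, so 1 lay inside the HT range and 2 inside the NC range. The HT+SEA libraries were thus spread over most of the line. The SD of their position leaves out the error of the HT mean, which rests on few counts.

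By their means, HT+EA lay nearer to NC than HT+SEA did in novel_circ_0022310 and novel_circ_0000142, and the groups lay side by side in novel_circ_0038449. Whether the 3 circRNAs differ from each other in this was not tested. As background, 59 other tested circRNAs had counts in all libraries, no overlap of HT and NC and a log2 fold change of at least 1 in size. Their median position was 0.567 for HT+EA, with quartiles of 0.329 and 0.819, and 0.538 for HT+SEA, with quartiles of 0.381 and 0.724. The HT+EA mean lay between the HT and NC means in 54 of these 59 and the HT+SEA mean in 53, so a place between them was common among circRNAs of this kind. The 59 were picked for a gap between HT and NC in these same libraries, and such a choice tends by itself to put other groups between. A place between the means was thus partly set by the choice, for the 59 and for the 3 described here. The HT+EA positions of novel_circ_0022310 and novel_circ_0038449 were inside those quartiles and that of novel_circ_0000142 was above them. The HT+SEA position of novel_circ_0000142 was inside them and that of novel_circ_0022310 was below. For novel_circ_0038449 it was about at the lower quartile, at 0.377 against 0.381.

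**Figure D3:**
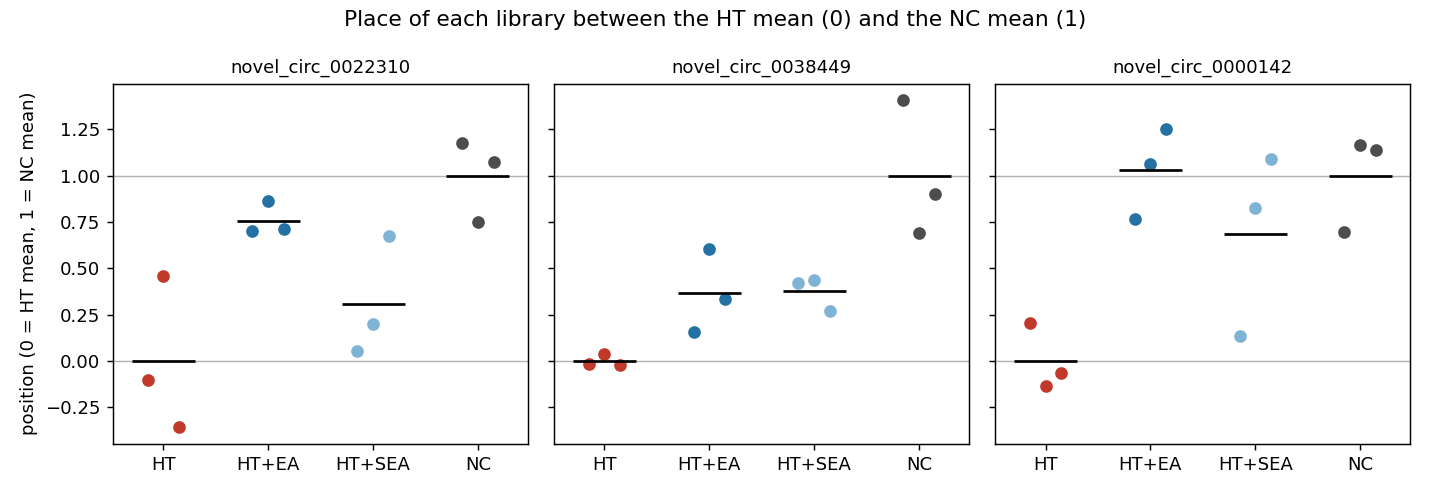
Position of each library (vertical axis, 0 at the HT mean and 1 at the NC mean) for the 3 circRNAs, with black bars for group means. The HT+EA bars stand at 0.757, 0.365 and 1.03 and the HT+SEA bars at 0.310, 0.377 and 0.684, in the order of the panels.

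The edgeR log2 fold changes against both ends place the groups on a log scale, again with no test. Against HT, HT+EA differed by -0.95 (SE 0.36) in novel_circ_0022310, 0.86 (SE 0.33) in novel_circ_0038449 and 1.45 (SE 0.56) in novel_circ_0000142. HT+SEA differed from HT by -0.30 (SE 0.35), 0.86 (SE 0.34) and 1.09 (SE 0.58) in that order. Against NC, HT+EA differed by 0.51 (SE 0.38), -0.81 (SE 0.30) and 0.03 (SE 0.50). HT+SEA differed from NC by 1.16 (SE 0.37), -0.80 (SE 0.30) and -0.34 (SE 0.51). On this scale both treated groups of novel_circ_0038449 lay about midway, whereas their CPM positions were nearer to HT. The sets share the HT or the NC libraries and are given side by side only.

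Whether the current itself mattered is the question put by HT+EA against HT+SEA, the only pair of groups that the choice of circRNAs did not use. The main fit took its estimate of the spread from all 12 libraries, however, HT and NC included. In novel_circ_0022310 every HT+EA library was below every HT+SEA library, at 65.2 to 80.2 CPM against 82.5 to 141 CPM. Such a lack of overlap was seen in 575 (11.9%) of the tested circRNAs. The log2 fold change was -0.65 with a standard error of 0.36, a fold of 0.636 with a 95% interval of 0.373 to 1.08. It was lower in 3 of 3 libraries and did not pass in edgeR's quasi-likelihood test (unadjusted p = 0.0902, Benjamini-Hochberg adjusted over all 4838 circRNAs 1.0). Without HT+SEA replicate 3 the value was -0.84 and the unadjusted edgeR p was 0.0451, with an adjusted p of 1.0. In a fit of only the HT+EA and HT+SEA libraries it was -0.65 with a standard error of 0.32 (edgeR unadjusted p = 0.0732, adjusted 0.923).

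In novel_circ_0038449 HT+EA and HT+SEA libraries overlapped, and the log2 fold change was -0.0039 with a standard error of 0.32. The 95% interval of the fold, 0.620 to 1.60, still allows a difference of that size in either direction (edgeR unadjusted p = 0.990, adjusted 1.0). In novel_circ_0000142 the libraries also overlapped, with a log2 fold change of 0.36 and a standard error of 0.51. Its fold of 1.29 had a 95% interval of 0.599 to 2.77, the widest of the 3 (edgeR unadjusted p = 0.488, adjusted 1.0). Over all alternatives the adjusted p lay between 0.805 and 1.0 for novel_circ_0022310, between 0.998 and 1.0 for novel_circ_0038449 and between 0.889 and 1.0 for novel_circ_0000142. None of the 3 was called. Of all tested circRNAs edgeR called 188 (3.89%) at an unadjusted p below 0.05 and 0 (0%) after adjustment. The unadjusted and adjusted counts were 119 and 1 with DESeq2 and 245 and 0 with limma-voom.

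**Figure D4:**
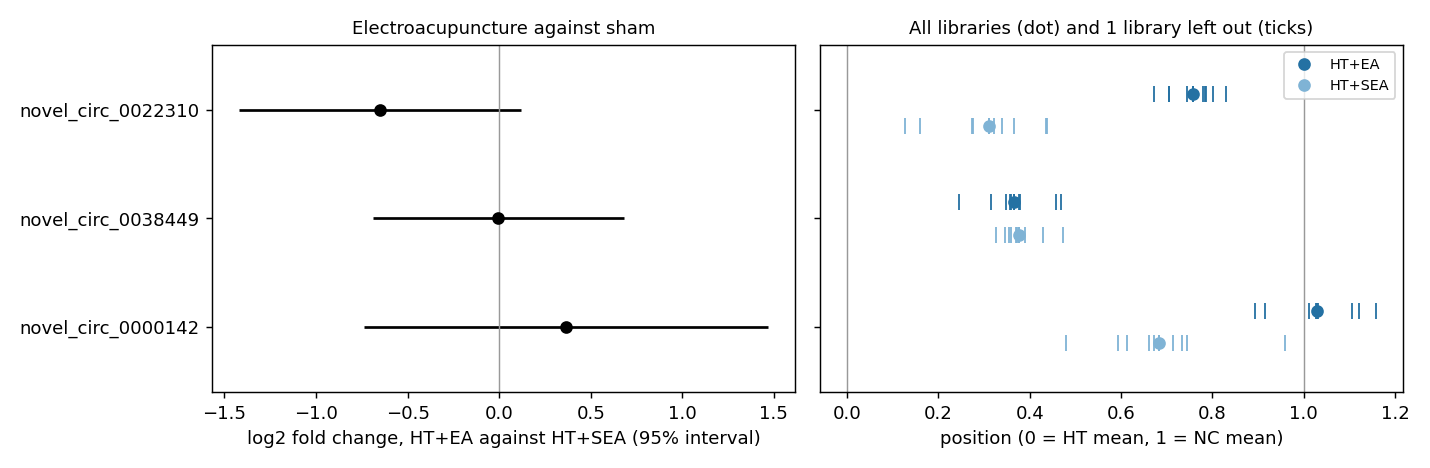
Left, the edgeR log2 fold change of HT+EA against HT+SEA with its 95% interval for the 3 circRNAs, all of which include 0. Right, the positions between HT (0) and NC (1) with all libraries (dots) and with each of the 12 libraries left out in turn (ticks). The HT+SEA ticks of novel_circ_0022310 run from 0.127 to 0.438.

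The 3 circRNAs were also compared with each other and with all tested circRNAs by the shape of their profile over the 12 libraries. The measure was the root-mean-square difference of log2 CPM, each profile centred on its own mean, where 0 means the same shape. As HT and NC libraries enter it, likeness partly restates the choice. novel_circ_0022310 differed from the mirror image of novel_circ_0038449 by 0.35 and from that of novel_circ_0000142 by 0.47. The lowered circRNAs novel_circ_0038449 and novel_circ_0000142 differed from each other by 0.47. A flat profile would differ from the 3 by 0.59, 0.57 and 0.52.

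Most alike to novel_circ_0022310 was novel_circ_0032168, with a difference of 0.29 and means of 37.5 CPM in NC, 89.1 in HT, 72.1 in HT+EA and 68.8 in HT+SEA. It was followed by novel_circ_0021228 and novel_circ_0019572, both at 0.34. The HT+EA and HT+SEA means of novel_circ_0032168 were close together. Most alike to novel_circ_0038449 was novel_circ_0025552, at 0.31, with 66.8 CPM in NC, 22.7 in HT, 28.1 in HT+EA and 37.5 in HT+SEA. The next were novel_circ_0040089 at 0.34 and novel_circ_0011442 at 0.35. Most alike to novel_circ_0000142 was novel_circ_0012111, at 0.30, with 83.6 CPM in NC, 32.8 in HT, 86.0 in HT+EA and 74.3 in HT+SEA. novel_circ_0023257 and novel_circ_0025806 followed, both at 0.32.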

How the data were processed

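According to the methods of the study, total RNA of the PVN was made into strand-specific libraries, and low-quality reads were removed by the authors. HISAT2, featureCounts and mRatBN7.2 were named for the sequencing in general, whereas the submitters' processing notes list human builds. For the program that called circRNAs, the name is not given in the sources used here. Deposited were raw read counts per circRNA, separately for each library. The 12 TPM columns beside them were not used, because some names did not match the labels.

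The 3 circRNAs, and the comparisons made, were chosen with earlier results of these data known. The most alike circRNAs are the 3 with the smallest root-mean-square difference to each. Counts were fitted with edgeR (version 4.0.16, R 4.3.3), glmQLFit and glmQLFTest, TMM and 4 groups in 1 fit of all 12 libraries, after filterByExpr (minimum count 10, minimum total 15), and p was adjusted by Benjamini-Hochberg over all 4838 circRNAs. The study's methods used DESeq2 with p below 0.05, so DESeq2 (1.42.0) and limma-voom (3.58.1) were alternatives. Tests were two-sided. Log2 CPM used a prior count of 2. The study parted 12 rats among the 4 groups and states that brain samples came from 1 batch of animals but, for want of tissue, not all from the same animal. Which rat gave which library was not stated, so p-values measure the spread between these libraries. The 12 within-group pairs differed by more than sampling noise (chi-square per degree of freedom 3.00 to 4.96).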

Additional observations from a re-analysis of the deposited data

How the results depend on the processing

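The HT against NC difference chose the 3 circRNAs, whose HT and NC libraries do not overlap, so that its direction cannot turn when a library is left out and shows nothing of its stability. Leaving out 1 library gave log2 fold changes of 1.25 to 1.84 for novel_circ_0022310, -1.78 to -1.45 for novel_circ_0038449 and -1.71 to -1.24 for novel_circ_0000142. For HT+EA against HT+SEA the same gave -0.84 to -0.49 for novel_circ_0022310, -0.25 to 0.18 for novel_circ_0038449 and 0.06 to 0.63 for novel_circ_0000142, lowest without HT+SEA replicate 1. The value of novel_circ_0038449, near 0, turned to 0.0428 with no filter, 0.0341 with a mean count of at least 2 and 0.00251 in a fit of only the HT+EA and HT+SEA libraries, where novel_circ_0000142 did not pass the filter.

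Positions of novel_circ_0022310 with 1 library left out ran from 0.673 to 0.831 in HT+EA and from 0.127 to 0.438 in HT+SEA. Those of novel_circ_0038449 ran from 0.246 to 0.469 in HT+EA and from 0.327 to 0.474 in HT+SEA, and those of novel_circ_0000142 from 0.893 to 1.16 and from 0.480 to 0.958. Mean log2 CPM in place of mean CPM gave 0.631 for HT+EA in novel_circ_0022310 and 0.511 for HT+SEA in novel_circ_0038449, and the median gave 0.478 for the latter. Over the tested table, HT+EA against HT+SEA had 534 unadjusted and 36 adjusted calls with no filter, 356 and 0 with a mean count of at least 2, 119 and 1 with DESeq2, and 208 and 0 without HT replicate 3. The cause of these shifts was not tested.

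With the replicate number as a block, HT+EA against HT+SEA had 163 calls, and the log2 fold changes of the 3 circRNAs were -0.65, -0.01 and 0.38. Same-numbered libraries did not deviate together, with correlations of -0.0883 to 0.104 over 18 pairs, and 2 of 12 libraries correlated best with their own number. The depth limits novel_circ_0000142 most, with 9 counts in all of HT.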

Other observations

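Other circRNAs showed graded differences of the kind described. Of 336 tested circRNAs with a log2 fold change of HT against NC of at least 1 in size, 109 (32.4%) had counts in all 12 libraries, against 3677 (76.0%) of all 4838 tested, and 62 of those 109 (1.28% of all tested) also had no overlap of HT and NC, 31 higher and 31 lower in HT. These limits were chosen after the values were seen, and no test was made. Among the 31 higher, novel_circ_0022310 ranked 4 by size, and among the 31 lower novel_circ_0038449 ranked 2 and novel_circ_0000142 ranked 8. The ends of the set were novel_circ_0003041 at 1.81 and novel_circ_0029383 at -1.73. Standard errors in the set had a median of 0.51 and a range of 0.26 to 0.92, and that of novel_circ_0038449 was the third smallest of 62, whereas that of novel_circ_0000142 ranked 44.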
